A study of Mus musculus with 12 samples.

Results

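The nuclear genome encodes most subunits of the oxidative phosphorylation machinery, and their mRNAs were followed here in mouse thymic epithelium with and without Cre acting on floxed genes of the liver X receptors (LXR), nuclear receptors for oxysterols. Members were taken by gene symbol alone: complex I genes named Nduf with a, b, c, s or v and a number, the succinate dehydrogenase genes Sdha to Sdhd, genes that begin with Uqcr, cytochrome c oxidase genes of the Cox4 to Cox8 families, and ATP synthase genes that begin with Atp5. This gave 84 of the 31332 genes in the table, and 78 of them passed the filter on low counts, which left 17268 genes for testing. The 6 that did not pass were Atp5l, Atp5l2, Cox6a2, Cox7a1, Cox7b2 and Cox8c, with 9 to 61 counts summed over all 12 libraries. Of the tested members, 4 share the symbol pattern without being subunits: Cox4nb (Emc8, of an endoplasmic reticulum membrane complex), Cox7a2l (a respiratory supercomplex factor), Atp5s and Atp5sl. The untested Atp5l2 is annotated as Atp5l2-ps, the symbol of a pseudogene.

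Cortical and medullary thymic epithelial cells (cTEC and mTEC) were sorted from thymuses of C57BL6/J mice aged 2 months. Both LXR genes, Nr1h3 (alpha) and Nr1h2 (beta), were floxed in every group. The control groups had no Cre, and the Cre groups also carried FoxN1-Cre, in which Cre is driven by a transcription factor gene of thymic epithelium. Each of the 4 groups had 3 libraries. Libraries 1 to 3 were control mTEC and 4 to 6 Cre mTEC. Libraries 7 to 9 were control cTEC and 10 to 12 Cre cTEC. A group with Cre and unfloxed alleles was not analysed here. The labels do not state whether libraries came from separate animals, so p-values measure the spread between these libraries.

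Complexes I and II feed electrons from NADH and succinate into the ubiquinone pool, complex III passes them to cytochrome c, and complex IV hands them to oxygen. The protons pumped by complexes I, III and IV drive complex V, the ATP synthase. Complex IV and complex V have subunits with paralogous genes, some used widely and some mainly in heart, skeletal muscle, lung, testis or brown fat. Subunits encoded in mitochondrial DNA were not analysed here.

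Promoter sequences are shown for Cox6a1, Cox6b1 and Atp5e (higher in mTEC), Ndufa11 (lower in mTEC) and Cox8b, the member that changed with genotype. Each is the 150 bases before the annotated start (RefSeq, GRCm38.p6, a later build than the mm9 of the deposited counts), written 5′ to 3′ along the gene. The windows lie at chr5:115348959-115349108, minus strand for Cox6a1, at chr7:30626115-30626264, minus strand for Cox6b1, at chr2:174464102-174464251, minus strand for Atp5e, at chr17:56717612-56717761, plus strand for Ndufa11 and at chr7:140900447-140900596, minus strand for Cox8b. Capitals mark the ETS motif CCGGAAG, on either strand, or the palindromic motif of nuclear respiratory factor 1 (NRF1). Most members' windows of this length held neither motif. These include Cox5a, Ndufc2, Ndufa8, Ndufb10 and Sdha, which also differed between the cell types.
Cox6a1: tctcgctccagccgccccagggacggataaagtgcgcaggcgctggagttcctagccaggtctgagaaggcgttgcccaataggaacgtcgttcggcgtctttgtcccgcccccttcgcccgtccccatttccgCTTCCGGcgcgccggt
Cox6b1: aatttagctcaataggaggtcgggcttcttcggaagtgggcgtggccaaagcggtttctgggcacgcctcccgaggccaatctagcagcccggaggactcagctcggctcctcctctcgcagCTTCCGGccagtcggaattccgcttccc
Atp5e: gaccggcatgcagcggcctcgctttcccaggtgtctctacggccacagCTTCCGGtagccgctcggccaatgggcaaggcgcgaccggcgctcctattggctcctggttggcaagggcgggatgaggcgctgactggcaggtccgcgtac
Ndufa11: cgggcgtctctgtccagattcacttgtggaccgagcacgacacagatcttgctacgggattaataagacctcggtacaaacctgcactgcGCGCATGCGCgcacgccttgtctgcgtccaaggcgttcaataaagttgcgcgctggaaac
Cox8b: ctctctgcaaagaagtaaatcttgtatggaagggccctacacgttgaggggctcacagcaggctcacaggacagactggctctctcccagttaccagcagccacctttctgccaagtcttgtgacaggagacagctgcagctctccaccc

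In windows of 250 bases before to 50 after the start, found for 68 of the 84 members, both strands were searched. The NRF1 motif was in 5.88% of members' windows and in 1.71% of those of the 13166 tested genes with a window. The ETS motif, bound by GABPA among others, was in 22.1% against 15%, and the YY1 motif AAGATGGC in 14.7% against 3.92%. The Sp1 motif GGGCGG went the other way, at 39.7% against 58.4%, and CCAAT stood at 45.6% against 38.2%. The exact DR4 direct repeat, of the type LXR binds, was in 0% of both, so this search cannot set members apart from other genes. Cox8b had neither capitalised motif in the window printed. Motif matches describe letters in a window and are not measured binding.

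Total counts ran from 4804697 (library 11) to 11159013 (library 1), and 1 count was worth 0.0898 to 0.194 CPM (counts scaled to library size with TMM factors). Nr1h2 went from 172 ± 17.5 to 115 ± 11.1 CPM in cTEC (SD, n = 3) and from 122 ± 11.4 to 79.2 ± 14.7 CPM in mTEC (log2 fold changes -0.58 and -0.63, edgeR adjusted p = 0.00566 and 0.0158). Nr1h3 stood at 7.7 and 8.38 CPM in cTEC and did not pass. Counts per gene do not show whether reads fall in the floxed exons. Scd2 and Abcg1, also taken as checks of genotype, were lower with Cre in both cell types. Their log2 fold changes in cTEC and mTEC were -4.07 and -3.05 for Scd2 (edgeR adjusted p = 2.13e-11 and 1.12e-09). For Abcg1 they were -4.05 and -2.55 (edgeR adjusted p = 2.28e-11 and 1.12e-09). The summed cTEC markers were 8774 to 20698 CPM in the cTEC libraries and 1835 to 2640 CPM in the mTEC libraries, and the summed mTEC markers 1297 to 2625 and 5892 to 7258 CPM. Macrophage and dendritic cell markers summed to 34.2 to 54.5 CPM in cTEC and 209 to 351 CPM in mTEC, and adipocyte markers to 8.99 to 16.1 and 84.9 to 165 CPM. Skeletal and heart muscle markers summed to 30.7 to 55 and 114 to 145 CPM (9 of 14 higher in each genotype), and B cell markers to 4.14 to 10.7 and 15.4 to 22.7 CPM. Thymocyte markers summed to 191 to 290 and 153 to 201 CPM. In control mTEC 7 of 9 were lower, and in Cre mTEC 5 were lower and 1 higher. Among all genes 29.3% were higher and 30% lower in control mTEC, and 25.1% and 24.5% in Cre mTEC. No marker of these lists was at 0 in all 12 libraries. The part of these lists in the mTEC against cTEC results below was not tested.

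The members together made up about the same share of RNA in all 4 groups. Their share of all counts was 0.871 ± 0.0636% in control cTEC, 0.861 ± 0.0567% in Cre cTEC, 0.882 ± 0.0695% in control mTEC and 0.884 ± 0.0291% in Cre mTEC (SD, n = 3), and the ranges overlapped. Within that total the complexes were divided differently. Complex IV took 0.078 to 0.0968% of counts in the 6 cTEC libraries and 0.103 to 0.129% in the 6 mTEC libraries. Complex II took 0.0776 to 0.0933% in cTEC and 0.066 to 0.0721% in mTEC. Neither pair of ranges overlapped, while those of complexes I, III and V did.

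**Figure D1:**
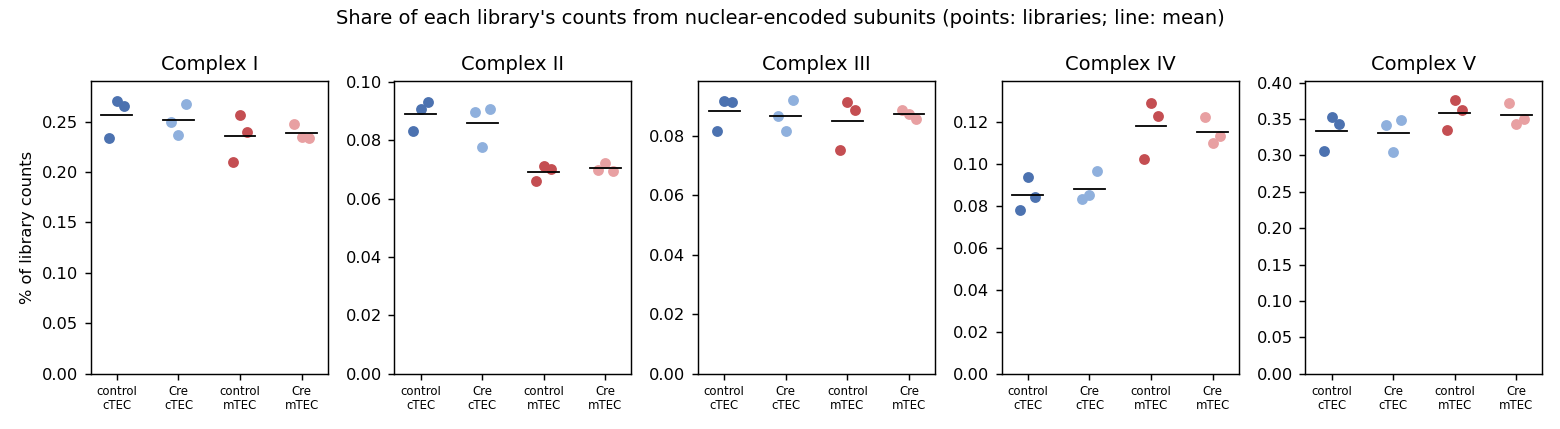
Percent of each library's counts from the subunits of each complex (y axis) in the 4 groups (x axis). Points are libraries and lines are group means of 3. Complex IV is higher and complex II lower in every mTEC library than in every cTEC library, and Cre and control ranges overlap within each cell type.

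The ratio of complex IV to complex I counts does not depend on scaling. It was 0.333 ± 0.015 in control cTEC, 0.351 ± 0.015 in Cre cTEC, 0.502 ± 0.0128 in control mTEC and 0.484 ± 0.0137 in Cre mTEC. Complex II to complex IV was 1.05 ± 0.0743, 0.976 ± 0.0906, 0.588 ± 0.0488 and 0.612 ± 0.042 in the same order of groups. For complex IV to I, the 6 cTEC libraries lay between 0.317 and 0.361 and the 6 mTEC libraries between 0.469 and 0.513. In bulk RNA, fewer cells of a kind and less RNA per cell cannot be told apart.

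Levels between members are compared per kilobase of the longest annotated transcript. In control cTEC the highest was Atp5b, the catalytic beta subunit of ATP synthase, at 669 CPM per kilobase, followed by Atp5a1, the alpha subunit, at 407. Among tested members the lowest were Cox4i2 at 1.15 and Atp5g1, 1 of the genes for the ATP synthase c ring, at 1.41. Atp5g3 encodes the same mature c protein and stood at 245 CPM per kilobase. Counts are uncertain for short genes with many processed copies: of the 84 members, 12 had at least 20% of the 50-base words of their principal transcript in transcripts of other genes. These include Atp5l (68.48%), Cox7c (52.95%), Atp5h (47.87%) and Ndufb4 (36.98%). Atp5g1 had 10.63%, shared with 163 other genes. Its level was divided by a longest transcript of 4715 bases, and that of Atp5g3 by 862, so the size of the gap between them is uncertain.

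Cox8b was the 1 member that passed a test of genotype. In cTEC, 1 of 78 members rose and 0 fell, where 5.62% of all tested genes rose and 3.38% fell (edgeR quasi-likelihood test, adjusted p under 0.05). The median log2 fold change was 0.03 for members and -0.02 for all genes. In mTEC, 0 members passed in either direction, against a background of 0.585% higher and 1.49% lower, and 1 member had an unadjusted p under 0.05. DESeq2 and limma voom also called 0 in mTEC. The difference between the cTEC and mTEC effects passed for 0 members, against 2.92% higher and 1.08% lower among all genes, and 0 members had an unadjusted p under 0.05. DESeq2 and voom called 0 there too. Of the 8 cTEC markers, 6 were higher in Cre cTEC, and their part in these values was not tested.

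These data also bound the size of a change. The 95% interval of the genotype effect lay within 1.5-fold in either direction for 71 of 78 members in cTEC and 73 of 78 in mTEC. Sdha, the flavoprotein of complex II, had a cTEC effect of -0.06 with a 95% interval from -0.31 to 0.19. Cox8a, the widely used paralog of Cox8b, had 0.12 with an interval from -0.13 to 0.36. The scarce Cox4i2 had -0.92 in cTEC and 0.41 in mTEC, with wide intervals from -2.23 to 0.39 and from -0.51 to 1.34. Effects for the 71 subunits other than tissue isoforms ran from -0.35 to 0.28 in cTEC and from -0.15 to 0.22 in mTEC.

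**Figure D2:**
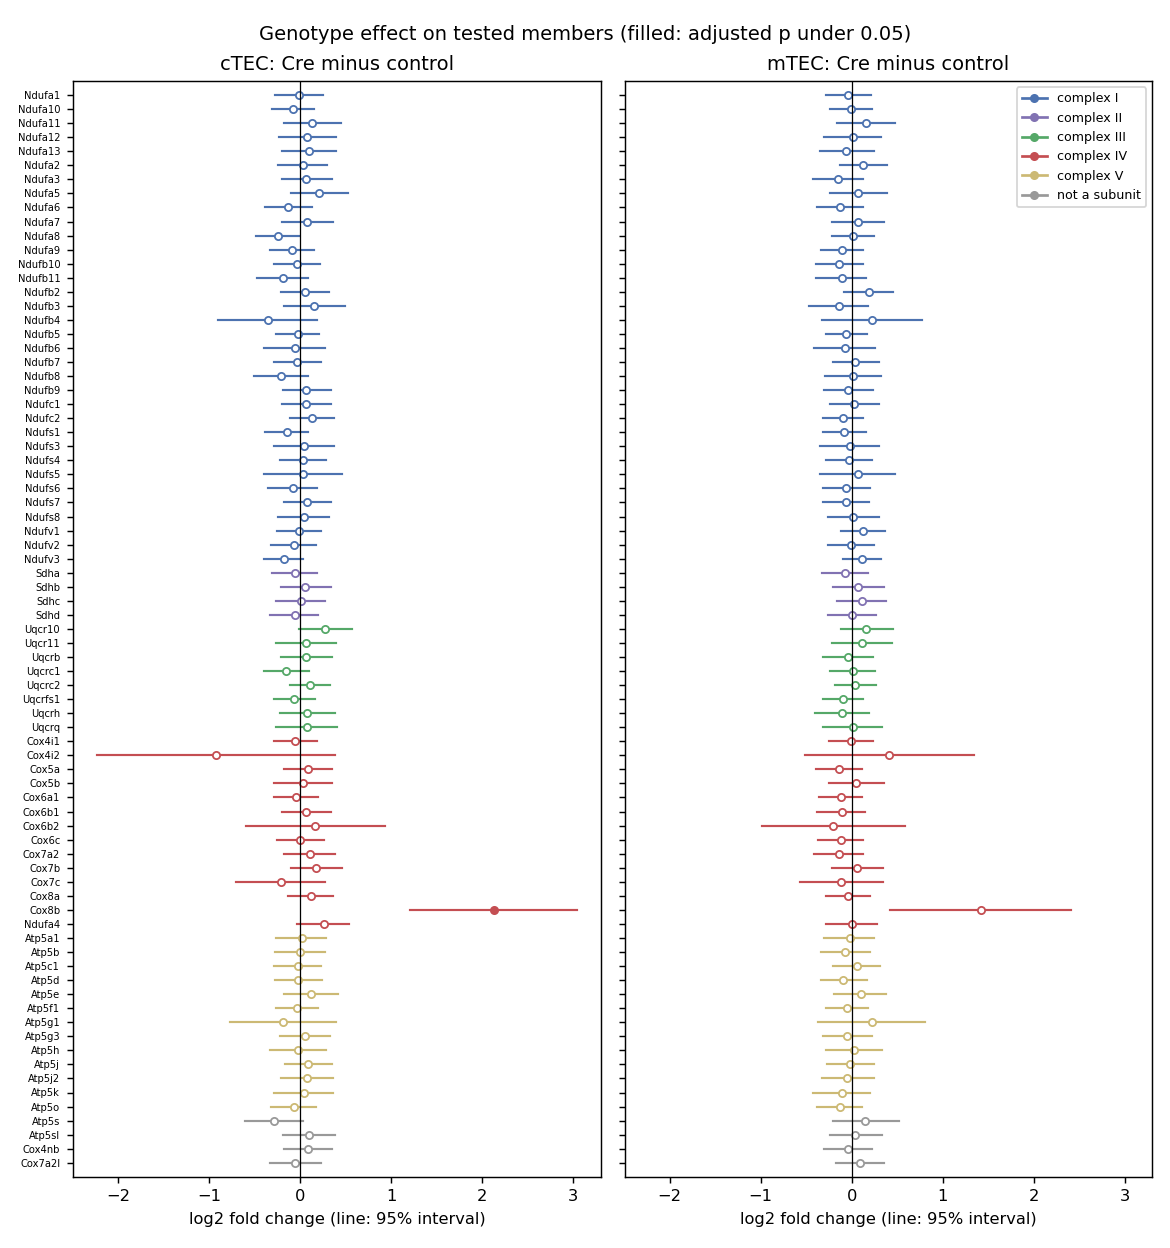
Log2 fold change, Cre over control, of the tested members, all but 1, in cTEC (left) and mTEC (right). Lines are 95% intervals, colours are complexes, and filled points have an adjusted p under 0.05. Cox8b in cTEC is the filled point, at 2.13. Cox8b in mTEC (1.42) and Cox4i2 in cTEC (-0.92) are the open points farthest from 0.

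The sign of the cTEC median turned with single libraries. With all libraries 44 of 78 values were positive. The median was -0.05 with 26 positive without library 7, -0.03 with 33 without library 10 and -0.04 with 27 without library 12. It was 0.07 with 56 positive without library 8 and 0.12 with 64 without library 11. Each of these fits called 1 member, and without library 11 8.18% of all genes were higher and 4.89% lower. A few subunits passed under other models: with voom Ndufa4 (log2 fold change 0.38, adjusted p = 0.0285) and Uqcr10 (0.39, adjusted p = 0.0366), and with length and GC offsets Ndufa4 (0.46, adjusted p = 0.0117) and Cox7b (0.35, adjusted p = 0.0253). By edgeR their values were 0.26, 0.28 and 0.18 (adjusted p = 0.31, 0.272 and 0.561).

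Cox8b encodes the heart and muscle isoform of complex IV subunit VIII, also found in brown fat. In control cTEC it stood at 0.864, 1.35 and 1.86 CPM, and in Cre cTEC at 5.59, 3.69 and 8.77 CPM. The lowest Cre library was above the highest control, and the group means differed 4.44-fold. The log2 fold change was 2.13 (SE 0.44, 95% interval 1.21 to 3.04, edgeR adjusted p = 0.0033). The counts behind this were low, 5, 8 and 13 in control and 50, 19 and 60 in Cre libraries. In mTEC the control libraries had 0.629, 0.985 and 1.05 CPM and the Cre libraries 3.65, 1.81 and 1.63 CPM. These groups did not overlap either, but the difference missed the threshold (log2 fold change 1.42, SE 0.47, edgeR adjusted p = 0.134). Among Cre libraries Cox8b was lower in mTEC than in cTEC (log2 fold change -1.36, edgeR adjusted p = 0.00857), a call lost without library 12 (adjusted p = 0.0832). The cTEC and mTEC genotype effects differed by 0.71, with a 95% interval from -0.68 to 2.11.

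The Cox8b call in cTEC held under the 18 alternatives that gave an adjusted p, with log2 fold changes of 1.77 to 2.44 and adjusted p up to 0.0276. DESeq2 gave no adjusted p for it (log2 fold change 2.15, unadjusted p = 1.78e-05), and a filter of 5 CPM in 3 libraries removed it. Cox8b made up 1.33 to 2.52% of Cox8a plus Cox8b per transcript length in control cTEC and 5.29 to 9.39% in Cre cTEC. In mTEC the shares were 0.797 to 1.2% and 2.1 to 4.02%. Cox8a remained the main form in every library, at 98.2 to 137 CPM.

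Markers of tissues rich in Cox8b were measured beside it, and their part in the result was not tested. The 15 skeletal and heart muscle markers summed to 47.2 to 55 CPM in control cTEC and 30.7 to 42.3 CPM in Cre cTEC, with 0 of 14 tested higher and Myh1, a myosin heavy chain, lower (log2 fold change -1.33, edgeR adjusted p = 0.000921). The 6 brown adipocyte markers summed to 24.2 to 27.8 and 18.8 to 30.3 CPM, with 0 of 4 tested higher, and the uncoupling protein gene Ucp1 averaged 0.703 and 0.404 CPM. No marker of either list was at 0 in all 12 libraries. The 4 erythroid markers summed to 3.11 to 7.85 CPM in control cTEC and 6.58 to 56 CPM in Cre cTEC, and to 9.07 to 21.4 and 6.94 to 84.1 CPM in mTEC. Their median log2 fold changes with genotype were 2.60 and 1.51 over 3 tested genes, of which 0 passed.

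**Figure D3:**
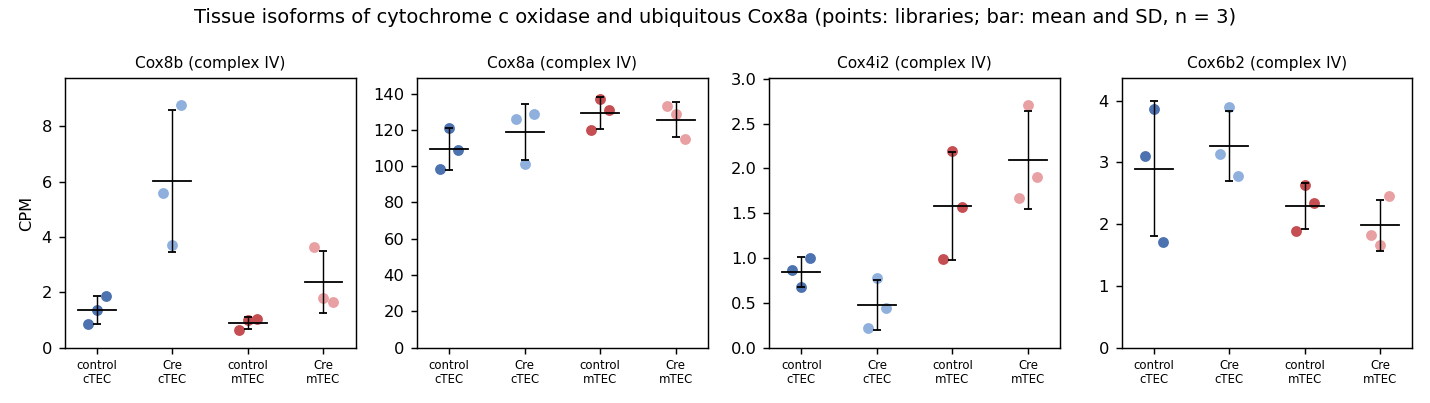
CPM (y axis) of 3 tissue isoforms of cytochrome c oxidase and of Cox8a in the 4 groups (x axis). Points are libraries, and bars are the mean and SD of 3. Cox8b is higher in every Cre library than in the controls of the same cell type, and Cox8a overlaps between genotypes.

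The other tissue isoforms were scarce. Cox4i2, the isoform of lung and hypoxic cells, had 0.864, 0.673 and 0.999 CPM in control cTEC and 0.224, 0.777 and 0.439 CPM in Cre cTEC. In control mTEC it had 0.988, 2.19 and 1.57 CPM, and in Cre mTEC 1.67, 2.71 and 1.9 CPM. It was higher in mTEC than in cTEC among Cre libraries (log2 fold change 2.20, edgeR adjusted p = 0.00254) and missed the threshold among controls (0.87, adjusted p = 0.146). Its locus overlaps Bcl2l1, and the library kit does not mark strand. Cox6b2, a testis isoform, averaged 2.61 CPM over all libraries and passed in no comparison of the main fit. Its Cre mTEC libraries lay below the Cre cTEC libraries (log2 fold change -0.70, edgeR adjusted p = 0.13). With length and GC offsets that difference passed (-1.01, edgeR adjusted p = 0.0319). Cox6a2, Cox7a1, Cox7b2 and Cox8c had at most 10 counts in any library.

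Between the cell types, 4 complex IV subunits were higher in mTEC in both genotypes, and Sdha and Sdhc of complex II were lower. In controls, 11 of 78 members were higher in mTEC and 15 lower, where 29.3% and 30% of all genes were. In Cre libraries 8 were higher and 12 lower, against 25.1% and 24.5%. As shares, 14.1% of members were higher and 19.2% lower in controls, and 10.3% and 15.4% in Cre. Both contrasts called 7 members higher and 9 lower, against 22.1% and 20.1% of all genes. With no overlap between groups in either genotype there were 7 and 7, against 21% and 18.4%. Their libraries do not overlap, and 0 members were called in opposite directions. Across the 78 members the values in controls and in Cre had a Pearson r of 0.853, against 0.887 across all genes. This describes genes of the same libraries, which are not independent.

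The balance of higher and lower calls moved with scaling. With DESeq2's size factors 16 members were higher and 12 lower in control mTEC. Leaving out 1 library gave 7 higher calls without library 2 or 9, 17 without library 11 and 22 without library 8. In the Cre contrast 5 were higher without library 6, and 24 were lower without library 11 and 7 without library 12. Shares of all genes called under these settings are not given here.

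**Figure D4:**
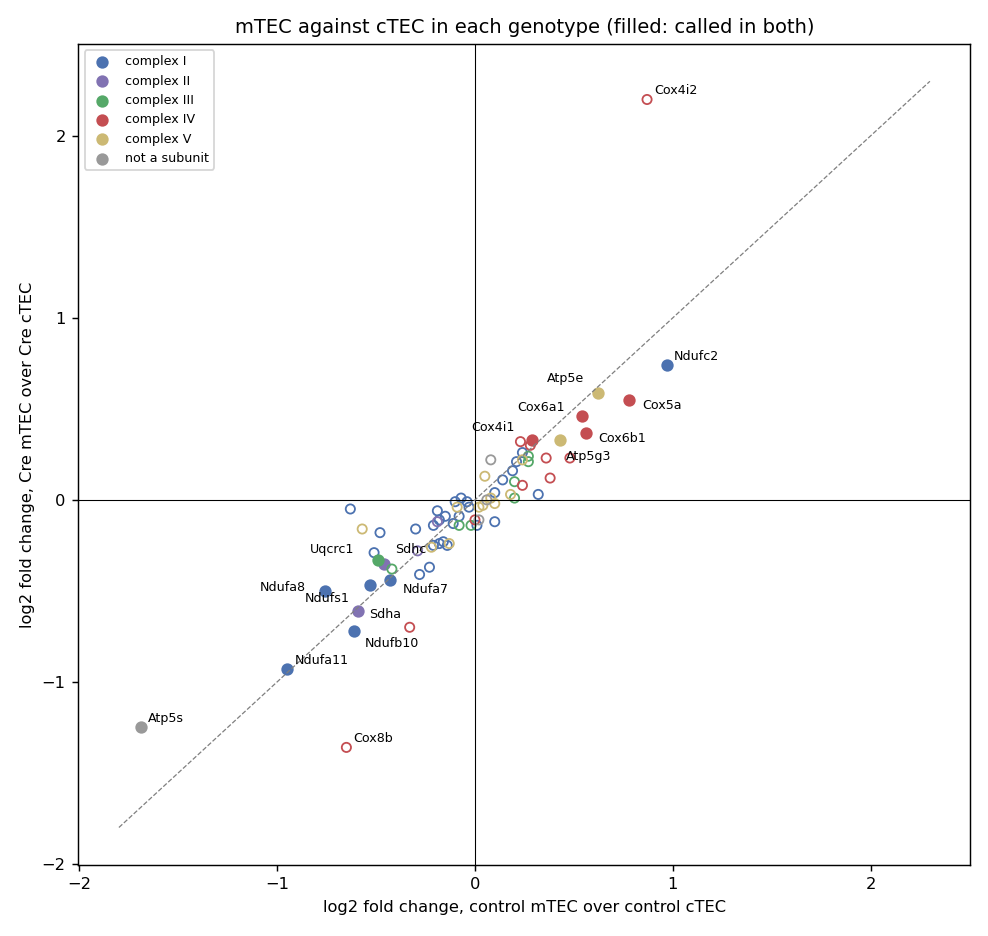
Log2 fold change of mTEC over cTEC in controls (x axis) and in Cre libraries (y axis) for the tested members, all but 1, coloured by complex. Filled points passed an adjusted p of 0.05 in both, and the dashed line marks equal values. Red filled points (complex IV) lie in the upper right, and both purple (complex II) and all blue filled points (complex I) except Ndufc2 in the lower left.

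Complex IV is cytochrome c oxidase. Of its 11 subunits other than tissue isoforms, 7 were higher in control mTEC and 0 lower, and in Cre mTEC 4 were higher and 0 lower. The shares higher were 63.6% and 36.4%, against 29.3% and 25.1% of all genes. All 11 values were positive in controls and 10 of 11 in Cre, with medians of 0.36 and 0.30 against -0.05 and -0.02 for all genes. Cox5a, a matrix-side subunit, had 43, 53.3 and 42.5 CPM in control cTEC and 72.3, 83.9 and 81.9 CPM in control mTEC. In Cre it had 54, 40 and 52.5 CPM in cTEC and 72.7, 69.4 and 74.1 CPM in mTEC. No mTEC library fell into the cTEC range in either genotype (log2 fold changes 0.78 and 0.55, SE 0.12 each, edgeR adjusted p = 2.64e-05 and 0.00102).

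Cox6a1 and Cox6b1, the widely used forms of subunits VIa and VIb, showed the same order. Cox6a1 had 90.6, 105 and 96.8 CPM in control cTEC and 133, 147 and 144 CPM in control mTEC (log2 fold change 0.54, edgeR adjusted p = 0.000518), and 0.46 in Cre (adjusted p = 0.00257). Cox6b1 had 90.1, 110 and 107 CPM in control cTEC and 125, 165 and 163 CPM in control mTEC (0.56, adjusted p = 0.00108), and 0.37 in Cre (adjusted p = 0.0213). Cox4i1, the main form of subunit IV, had log2 fold changes of 0.29 and 0.33 (adjusted p = 0.0341 and 0.0206). Cox6c, Cox7a2 and Ndufa4, a complex IV subunit despite its name, passed in controls (0.36, 0.48 and 0.38) and not in Cre (0.23, 0.23 and 0.12). The difference of those effects between genotypes did not pass for any member.

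Transcripts of these subunits are short. Their longest annotated forms had a median of 765 bases, and those of all tested genes 3261. With offsets for length and GC content 5 of 11 were higher and 0 lower in controls, and 1 was higher and 1 lower in Cre. Their medians were 0.28 and 0.12, against -0.12 and -0.07 for all genes. Less the median of all genes, complex IV stood at 0.40 in controls (0.42 without offsets) and 0.19 in Cre (0.32 without). The 1 that was lower in Cre was Cox8a, at -0.25 (adjusted p = 0.0201) with the offsets and 0.08 without them. Cox5a held its call under all 20 alternatives in both genotypes. Cox6a1 lost it in both with these offsets (adjusted p = 0.0693 and 0.0903). Without library 2 or 9, 4 of 11 were higher in controls, and without library 6, 2 of 11 in Cre. Cox6c lost its control call without library 2 or 9, and Ndufa4 without library 2, 3, 7 or 9. Cox6b1 lost its Cre call with voom, with the offsets, and without library 6 or 11. Cox4i1 lost its control call with the offsets and without library 2, 3, 7 or 9, and its Cre call with the offsets, with voom and without library 6.

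Complex I, NADH dehydrogenase, had 10 of 35 tested subunits lower and 1 higher in control mTEC, and 7 lower and 1 higher in Cre mTEC, with medians of -0.16 and -0.13. The shares lower, 28.6% and 20%, were near or below those of all genes, 30% and 24.5%. The control median was 0.01 when no filter on low counts was applied, where the median of all genes was -0.12. All 7 nuclear core subunits in the set, which form the electron path from NADH, had negative values in both genotypes, and 3 passed in controls and 2 in Cre. Ndufs1, the largest core subunit, had 147, 156 and 169 CPM in control cTEC and 109, 110 and 107 CPM in control mTEC. In Cre it had 159, 116 and 152 CPM in cTEC and 101, 104 and 104 CPM in mTEC. The mTEC libraries lay below every cTEC library of the same genotype (log2 fold changes -0.53 and -0.47, SE 0.11 each, edgeR adjusted p = 0.000454 and 0.00179). Ndufv1, the NADH-binding core subunit, was lower in controls (-0.30, adjusted p = 0.0343) and at -0.16 in Cre (adjusted p = 0.271). Its control call was lost with DESeq2, with its size factors, without a filter and without library 1, 2, 3, 4, 5, 7, 8 or 9.

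Accessory subunits held the largest differences of complex I in each direction. Ndufa11, a membrane-arm subunit, had 175, 249 and 226 CPM in control cTEC and 99.7, 125 and 112 CPM in control mTEC (log2 fold change -0.95, SE 0.15, edgeR adjusted p = 2.73e-05). Its value in Cre was -0.93 (adjusted p = 4.61e-05), and no groups overlapped. Ndufa8 and Ndufb10 were also lower, with log2 fold changes of -0.76 and -0.61 in controls and -0.50 and -0.72 in Cre. Ndufa7 had -0.43 and -0.44, and its calls were lost in both genotypes without a filter, in controls without library 1 or 9 and in Cre without library 6. Ndufb4 (-0.63), Ndufb8 (-0.51) and Ndufv3 (-0.48) passed in controls and not in Cre, and Ndufa5 (-0.41) and Ndufs7 (-0.37) in Cre and not in controls. The Ndufb4 call was lost with DESeq2, with its size factors, under both other filters, and when library 1, 3, 5, 7, 8, 9 or 12 was left out, with a highest adjusted p of 0.208. Without a filter Ndufv3, Ndufa5 and Ndufs7 lost theirs too. Ndufa5 also lost it without library 5, 6, 10 or 12, and Ndufs7 without library 5 or 12. Ndufc2, also in the membrane arm, was the 1 subunit of complex I called higher. It had 63.6, 70.3 and 65.1 CPM in control cTEC and 118, 142 and 129 CPM in control mTEC (0.97, SE 0.11, adjusted p = 3.96e-07), and 0.74 in Cre (adjusted p = 1.5e-05). Ndufa8, Ndufa11, Ndufb10, Ndufc2 and Ndufs1 held their calls under all 20 alternatives in both genotypes. The count of lower subunits was 6 in controls without library 1 or 9, and 13 in Cre without library 11.

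**Figure D5:**
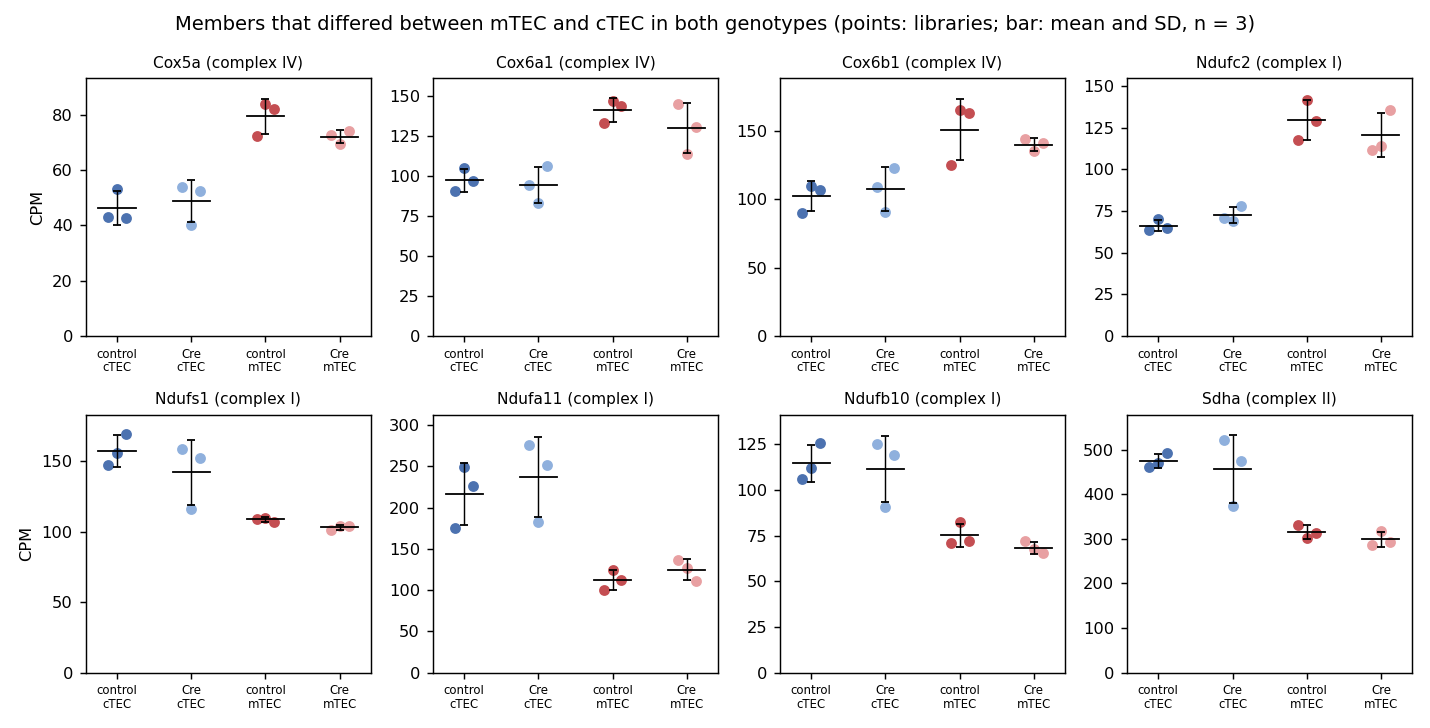
CPM (y axis) of 8 members called in both genotypes, in the 4 groups (x axis). Points are libraries, and bars are the mean and SD of 3. Cox5a, Cox6a1, Cox6b1 and Ndufc2 are higher in mTEC, and Ndufs1, Ndufa11, Ndufb10 and Sdha lower, with Cre and control close to each other within a cell type.

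Complex II oxidises succinate and is also an enzyme of the citric acid cycle. All 4 of its subunits had lower values in mTEC, and 2 passed in each genotype. Among all genes 30% were lower in control mTEC and 24.5% in Cre mTEC. Sdha had 462, 471 and 493 CPM in control cTEC and 331, 301 and 313 CPM in control mTEC. In Cre it had 522, 374 and 474 CPM in cTEC and 286, 318 and 293 CPM in mTEC. The cell types did not overlap (log2 fold changes -0.59 and -0.61, SE 0.12 each, edgeR adjusted p = 0.000307 and 0.000287), and both calls held under all 20 alternatives. Sdhc, a membrane anchor, had -0.46 and -0.35 (adjusted p = 0.00497 and 0.0277), with overlapping libraries in Cre. Both Sdhc calls were lost without a filter, and the Cre call with only the 6 libraries compared. Sdhb, the iron-sulfur subunit, was at -0.29 and -0.28 and did not pass (adjusted p = 0.0627 and 0.0817). With length and GC offsets it passed, at -0.37 and -0.40 (edgeR adjusted p = 0.00269 and 0.00158), where the medians of all genes were -0.12 and -0.07. Without library 11 all 4 were called lower in Cre, with a median of -0.44 against 0.05 for all genes. Without library 5, 6, 8, 10 or 12 Sdha alone passed. The Sdhc locus overlaps the gene model Gm46172, and reads in bases that such a pair shares cannot be told apart without strand. Overlaps were taken from whole gene spans, and whether exons are shared was not examined. The loci of Ndufs1 and Ino80dos and of Cox7a2 and Tmem30a overlap too.

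Complex III had 8 tested members. Uqcrc1, a core protein, was lower in both genotypes (log2 fold changes -0.49 and -0.33, edgeR adjusted p = 0.00194 and 0.0297), with overlap in Cre. Both calls were lost without a filter. The Cre call was also lost with only the 6 libraries compared and without library 4, 5, 6, 7, 8, 10 or 12. Uqcrfs1, the Rieske iron-sulfur protein, was higher in control mTEC (0.27, adjusted p = 0.0353) and at 0.24 in Cre (adjusted p = 0.0718). Its control call was lost without library 1, 2, 3, 5 or 9.

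ATP synthase had 2 of 13 tested subunits higher in both genotypes and 0 lower, where 22.1% and 20.1% of all genes were. Atp5e, the small epsilon subunit of the F1 head, had 49.3, 70.6 and 61.2 CPM in control cTEC and 76, 108 and 94.2 CPM in control mTEC (log2 fold change 0.62, SE 0.14, edgeR adjusted p = 0.000987). It had 0.59 in Cre (adjusted p = 0.00176) and held under all 20 alternatives in both. Atp5g3 had 0.43 and 0.33 (adjusted p = 0.0079 and 0.0417). Its Cre call was lost with voom, with the length and GC offsets, and without library 2, 3, 4, 5, 6, 9 or 11. The catalytic subunits did not pass: Atp5b had 0.08 and 0.01, and Atp5a1 -0.22 and -0.26. With length and GC offsets Atp5a1 passed as lower, at -0.35 and -0.36 (edgeR adjusted p = 0.00819 and 0.00746), and Atp5b did not pass. Of the 4 tested symbol matches that are not subunits, Atp5s had the largest difference of any member in controls (-1.69, adjusted p = 3.45e-08). It had 29, 39.7 and 43 CPM in control cTEC against 10.8, 11.3 and 12.8 CPM in control mTEC, and -1.25 in Cre (adjusted p = 3.32e-06). Atp5sl, Cox4nb and Cox7a2l passed in no comparison.

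Genes around the respiratory chain were listed separately. Their counts stand against 30% of all genes lower and 29.3% higher in control mTEC, and 24.5% and 25.1% in Cre mTEC. Of 19 tested genes for electron carriers, ubiquinone synthesis and the dehydrogenases that feed ubiquinone, 11 (57.9%) were lower and 1 higher in mTEC in each genotype. The lower genes include the electron transfer flavoprotein genes Etfa (log2 fold changes -0.95 and -1.09) and Etfb (-1.08 and -0.80), and Gpd2, mitochondrial glycerol phosphate dehydrogenase (-0.99 and -1.23). Of 18 citric acid cycle genes, 8 (44.4%) were lower and 1 higher in control mTEC, and 8 lower and 2 higher in Cre, among them Suclg2, a succinyl-CoA ligase subunit (-1.22), and Cs, citrate synthase, which was higher (0.41). Of 28 tested assembly factors, 12 (42.9%) were lower and 5 higher in control mTEC, and 10 (35.7%) lower and 3 higher in Cre. Bcs1l, which inserts the Rieske protein into complex III, was at -1.13, and Surf1, an assembly factor of complex IV, at -0.80. Cox17, the copper chaperone of complex IV, was higher (0.63).

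Of 75 mitochondrial ribosome genes, 33 (44%) were lower and 5 higher in control mTEC, but 16 (21.3%) lower and 4 higher in Cre, below the background. Of 22 glycolysis genes, 12 (54.5%) were lower and 2 higher in controls, and 10 (45.5%) and 2 in Cre. Of 26 regulators of mitochondrial biogenesis, 7 (26.9%) were lower and 5 (19.2%) higher in controls, both below the background, and 9 (34.6%) and 4 in Cre. Gabpa, the DNA-binding subunit of the factor that recognises the ETS motif, was lower in mTEC (-1.11 and -0.83, edgeR adjusted p = 4.73e-07 and 2.24e-05), and its partner Gabpb1 was higher (0.79 and 0.66). The Gabpa and Atp5j loci overlap, and unstranded reads in bases they share cannot be told apart. Atp5j had -0.13 and -0.24 and did not pass. Esrrg, a nuclear receptor of oxidative metabolism, was higher (2.58 and 2.13), and Ppargc1a, a coactivator of mitochondrial biogenesis, lower (-0.86 and -0.58).

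In Cre cTEC, 0 of 28 assembly factors, 0 of 19 carrier genes and 0 of 75 mitochondrial ribosome genes passed. Among all tested genes 5.62% rose and 3.38% fell there. Pdha1, a pyruvate dehydrogenase subunit, fell as 1 of 18 citric acid cycle genes (log2 fold change -0.37, edgeR adjusted p = 0.0227). The glycolysis genes Pfkp (-0.54, adjusted p = 0.00191) and Tpi1 (-0.39, adjusted p = 0.0188) fell, 2 of 22 tested. The uncoupling protein gene Ucp2 (-0.45, adjusted p = 0.014) and the outer membrane channel gene Vdac1 (-0.49, adjusted p = 0.0258) fell, 2 of 14 tested in their list. Gabpb2 rose (0.60, adjusted p = 0.00287), 1 of 26 regulators of mitochondrial biogenesis. Of 5 tested subunits or close partners of the complexes with other symbols, 1 rose, 2010107E04Rik, a small ATP synthase subunit (0.40, adjusted p = 0.0475). In Cre mTEC, Idh2, mitochondrial isocitrate dehydrogenase, rose (0.50, adjusted p = 0.0279), 1 of 18 citric acid cycle genes, where 0.585% of all genes rose.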

How the data were processed

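RNA of sorted cTEC and mTEC was measured in 12 libraries made with a SMARTer low-input kit, which does not mark strand. The authors deposited raw read counts per gene symbol. The submitters' processing notes name the aligner STAR, the counter HTSeq, edgeR and mm9. No version, annotation, strand setting or treatment of multiply matching reads is given in the sources consulted.

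From the counts, CPM with TMM factors and edgeR's quasi-likelihood test (edgeR 4.0.16, R 4.3.3) were computed, two-sided, on the 17268 genes that passed filterByExpr by group, in 1 fit of all 12 libraries (8 residual degrees of freedom). P-values were adjusted by Benjamini-Hochberg over all tested genes. Adjusted p-values are from edgeR unless another tool is named, and each log2 fold change sets Cre against control, or mTEC against cTEC. The test was checked on simulated data. Total counts of 4804697 to 11159013 set the precision, and without molecular identifiers PCR copies may be counted.

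Samples were grouped by the labelled cell type and genotype. Tried beside this were voom with quality weights (limma 3.58.1), DESeq2 1.42.0, its size factors in edgeR, a robust fit, other filters and thresholds, only the libraries compared, offsets for transcript length and GC content (mgcv 1.9.3), and each library left out. Counts by complex under these alternatives and the principal transcript length were added after seeing the data. Lengths and shared 50-base words came from GENCODE (release M21) by symbol, with lengths for 98.01% of tested genes, and promoters from RefSeq (GRCm38.p6).

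The members and lists were chosen with earlier results of these data known. Genes named with values are members called with genotype, up to 10 each way called in both genotypes without overlap, tissue isoforms, fixed core subunits, the highest and lowest per length, the symbol matches that are not subunits, and up to 4 genes by p of each context list. Nr1h2, Nr1h3, Scd2 and Abcg1 were named as checks of genotype. Cox6c, Cox7a2, Ndufa4, Uqcr10, Cox7b, Sdhc, Gabpb1, Ppargc1a, Surf1, Cox17, Cs, Etfa, Myh1, Ndufb4, Ndufb8, Ndufv3, Ndufa5, Ndufs7, Atp5l, Cox7c and Atp5h were named after their values were seen. The values of 1 tested member are not reported here, and it is left out of the plots of single members but kept in all counts.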

Additional observations from a re-analysis of the deposited data

How the results depend on the processing

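No paired analysis was possible because no replicate number is shared between groups. With 3 libraries a group and members at a median standard error of 0.13 (log2), small changes are not detectable. No called member reversed its direction under an alternative that gave it a value. Medians near 0 changed sign and counts near the threshold moved.

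Members called higher in Cre cTEC numbered 1 in the analysis reported, 0 with DESeq2, 0 with the 5 CPM filter, 3 with voom and 3 with length and GC offsets. The median difference between the cTEC and mTEC genotype effects was 0.03, and -0.02 to 0.17 with 1 library left out, the highest without library 11.

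In control mTEC against cTEC, 11 members were higher, and 18 with voom, 20 without a filter, 19 with the 5 CPM filter, 7 at a threshold of 0.01, and 7 to 22 with 1 library left out. There 15 were lower, and 7 without a filter, 26 with length and GC offsets, and 10 to 16 with 1 library left out. The members' median was 0.14 without a filter, where the median of all genes was -0.12. With length and GC offsets the median of all genes was also -0.12. Complex I subunits called lower numbered 10, and 5 without a filter, 17 with length and GC offsets and 6 to 10 with 1 library left out. Complex II subunits called lower numbered 2, and 1 without a filter. They were 3 with voom, with only the 6 libraries compared and with length and GC offsets, and 2 to 3 with 1 library left out. Ubiquitous complex IV subunits called higher ranged from 4 to 9 with 1 library left out.

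In Cre mTEC against cTEC, 8 members were higher, and 14 with the 5 CPM filter, 4 with length and GC offsets, 5 at a threshold of 0.01, and 5 to 11 with 1 library left out. There 12 were lower, and 23 with voom, 7 without a filter, 32 with length and GC offsets, 7 at a threshold of 0.01, and 7 to 24 with 1 library left out. Complex IV subunits called higher numbered 4, and 2 with voom, 7 with the 5 CPM filter, 1 with length and GC offsets and 2 to 5 with 1 library left out. Complex I subunits called lower numbered 7, and 14 with voom, 4 without a filter, 20 with length and GC offsets and 5 to 13 with 1 library left out. Complex II subunits called lower numbered 2, and 3 with voom, 3 with length and GC offsets, 1 without a filter and 1 with only the 6 libraries compared. With 1 library left out they were 1 to 4. The cause of these movements was not tested.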
